A study of Mus musculus with 4 samples.

Results

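Coding m6A peaks in short internal exons were the peaks of 2 m6A meRIP-seq lists whose summit, the position of strongest signal, lay in coding sequence of an exon under 400 nt that is neither the first nor the last of its transcript. Summits were placed on the longest-coding GENCODE M21 basic transcript of each protein-coding gene, and those over 200 nt from both the start and the stop codon, in no exon of another gene, were kept. This rule left 234 of 15635 peaks in m6A IP replicate 1 and 222 of 14872 in replicate 2, or 2.16% and 2.12% of the 10829 and 10464 summits that fell on a chosen transcript. They lay in 218 and 212 genes, and no exon held more than 1 of them in either list.

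In meRIP-seq an antibody pulls RNA fragments with N6-methyladenosine (m6A) out of a fragmented RNA sample, and reads from the antibody fraction (IP) pile up at methylated sites over the unselected input. The cells were Kit+ foetal liver cells of C57BL/6 mice, enriched with magnetic beads, and per the study's methods they came from Ythdf2 CTL animals, so no deletion of the m6A reader YTHDF2 enters these data. The series has 2 IP and 2 input samples. The labels give total RNA for the IP samples and polyA RNA for the input samples, and an age is not given in the sources used here. The labels state 1 cell type and 1 condition, so the comparisons made here are between exon classes within each list, and they describe these 2 libraries. Peak lists show transcripts with called m6A and not expression. Of the marker genes checked, 5 of 8 progenitor genes and 3 of 6 erythroid genes had a placed summit in both lists, against 2 of 6 hepatocyte, 0 of 4 macrophage and 1 of 4 endothelial genes. Over all 21851 genes the share was 28.4%, and with lists this short the counts do not separate the cell types.

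As background, m6A is written on nascent mRNA by the METTL3-METTL14 complex, mostly at the central adenosine of DRACH motifs, of which GGAC is the commonest core. Exon junction complexes, which are left on mRNA just upstream of each splice junction, keep the writer away from nearby sequence. Long internal exons and last exons therefore carry most coding m6A, and short internal exons, which make up most coding sequence, carry little. Coding peaks in short internal exons are the sites where a summit was nevertheless called.

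Whole exons are shown for 6 of the strongest sites, so that the motif can be read against the summit. They are the first 6, by the lower of their −log10 q values in the 2 lists, among exons of at most 300 nt with GGAC within 50 nt of both summits. Sequences are of the coding strand, 5′ to 3′, from GRCm38 (mm10), and capitals mark GGAC.
Spin1: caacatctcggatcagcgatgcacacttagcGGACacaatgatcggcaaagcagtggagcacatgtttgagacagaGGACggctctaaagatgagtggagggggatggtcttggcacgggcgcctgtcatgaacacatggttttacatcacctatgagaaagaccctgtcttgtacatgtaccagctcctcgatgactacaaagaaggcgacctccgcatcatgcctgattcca
Rad52: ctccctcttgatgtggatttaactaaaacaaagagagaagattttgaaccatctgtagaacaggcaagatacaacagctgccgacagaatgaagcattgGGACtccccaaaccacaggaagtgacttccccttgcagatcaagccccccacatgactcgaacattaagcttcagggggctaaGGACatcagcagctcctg
Rab38: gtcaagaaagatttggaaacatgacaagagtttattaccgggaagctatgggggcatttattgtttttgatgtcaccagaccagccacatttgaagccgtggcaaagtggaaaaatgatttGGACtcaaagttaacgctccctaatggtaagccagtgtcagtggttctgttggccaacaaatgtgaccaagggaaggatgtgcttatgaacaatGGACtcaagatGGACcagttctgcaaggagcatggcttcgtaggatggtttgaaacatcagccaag
Ccsap: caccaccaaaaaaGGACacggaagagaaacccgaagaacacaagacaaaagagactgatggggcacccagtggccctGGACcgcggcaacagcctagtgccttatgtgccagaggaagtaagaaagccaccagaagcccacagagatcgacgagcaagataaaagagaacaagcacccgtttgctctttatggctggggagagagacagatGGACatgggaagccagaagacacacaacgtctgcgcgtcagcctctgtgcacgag
Cep55: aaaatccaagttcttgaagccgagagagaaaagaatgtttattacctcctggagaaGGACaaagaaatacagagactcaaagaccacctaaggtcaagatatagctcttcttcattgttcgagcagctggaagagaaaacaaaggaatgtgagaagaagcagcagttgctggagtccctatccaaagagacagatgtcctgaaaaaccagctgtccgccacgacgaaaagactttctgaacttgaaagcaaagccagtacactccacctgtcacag
Ankrd16: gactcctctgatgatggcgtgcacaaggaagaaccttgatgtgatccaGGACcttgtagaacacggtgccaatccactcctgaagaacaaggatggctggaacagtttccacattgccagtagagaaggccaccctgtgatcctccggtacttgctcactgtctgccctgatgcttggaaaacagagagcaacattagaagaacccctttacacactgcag
The Spin1 exon is exon 5 of 6, chr13:51144302-51144535 on the plus strand. Spin1 encodes spindlin 1, a reader of methylated histone H3. Counting from 1 at its first base, the summit was at base 1 in replicate 1 and base 20 in replicate 2, and the adenosines of its GGAC sites were at bases 34 and 79. The Rad52 exon (a factor of homologous recombination) is exon 8 of 12, chr6:119918587-119918786 on the plus strand, with summits at bases 151 and 75 and GGAC adenosines at bases 102 and 185. The Rab38 exon (a small GTPase of lysosome-related organelles) is exon 2 of 3, chr7:88450481-88450761 on the plus strand. Its summits were at bases 6 and 13, within 50 nt of a GGAC that lies in the exon before it on the spliced transcript, while its own GGAC adenosines were at bases 124, 218 and 229. The Ccsap exon is exon 3 of 4, chr8:123845180-123845445 on the minus strand, with summits at bases 81 and 68 and the nearest GGAC adenosine at base 80. The Cep55 exon, from a gene for a protein of the cytokinetic midbody, is exon 4 of 10, chr19:38060081-38060356 on the plus strand. Its summits were at bases 81 and 78 and its only GGAC adenosine at base 59. The Ankrd16 exon is exon 2 of 7, chr2:11779677-11779897 on the plus strand, with summits at bases 8 and 10 and the adenosine of its GGAC at base 51. On the spliced transcript a further GGAC, of which only the last 3 bases are in the exon shown, lay across its first junction, closer to both summits.

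The deposited −log10 q and fold enrichment, the IP signal over the local background at the summit, are given for replicate 1 and then replicate 2. The exon with the highest lower −log10 q was exon 2 of Mcl1 (chr3:95659761-95660008, plus strand, 248 nt), which encodes an anti-apoptotic Bcl2 family protein required by hematopoietic stem cells. Its −log10 q was 37.0 and 38.9, at a fold enrichment of 4.29 and 4.88 from 127 and 122 recovered IP reads. Spin1 exon 5 reached a −log10 q of 45.3 and 36.2 and a fold enrichment of 7.45 and 5.77. The values of the 2 libraries were close for both exons.

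Exon 3 of Msl1 (chr11:98800000-98800382, plus strand, 383 nt), the scaffold of a histone H4 acetyltransferase complex, had 164 IP reads at the summit in replicate 1, the most of any member, and 156 in replicate 2, at a fold enrichment of 4.18 and 3.74. In exon 37 of Akap13 (chr7:75749180-75749510, plus strand), a kinase anchoring protein, the fold enrichment was 5.14 and 5.13. Exon 10 of Epc2 (chr2:49536825-49537168, plus strand), a subunit of the NuA4 histone acetyltransferase, had 6.18 and 6.38. Each of these differed between replicates by less than the spread over all recurring exons given below.

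Exon 2 of Spen (chr4:141522072-141522392, minus strand), an RNA-binding transcriptional repressor, had a fold enrichment of 5.98 and 4.38, with the summit on the same base in both lists. In exon 24 of C2cd3 (chr7:100435758-100436096, plus strand), which acts in centriole elongation, it was 5.62 and 4.76. In exon 2 of Fbxo45 (chr16:32238400-32238756, minus strand), an F-box protein of a ubiquitin ligase, it was 3.94 and 6.59, the widest gap between replicates among the 15 exons with the highest lower −log10 q. The rest of these 15 were in Eprs (exon 19), 1190002N15Rik (exon 2), Zfp609 (exon 6), Rad52 (exon 8), Pank2 (exon 2), Dido1 (exon 4) and Rab38 (exon 2), with −log10 q between 21.3 and 35.8. Ranked instead by the lower fold enrichment, over exons with at least 10 control reads in the background of both lists, Spin1 was first, and Bptf exon 3 (a chromatin remodeler subunit, 4.39 and 4.07) and Lrp5 exon 6 (a Wnt co-receptor, 4.40 and 3.94) entered the first 10.

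A member summit was called in both lists in 148 exons of 140 genes, out of 308 exons of 289 genes with a member in either list. Of the 148 exons, 9 were under 200 nt, 45 were 200 to under 300 nt and 94 were 300 to under 400 nt long. The summits of the 2 lists were a median of 10 nt apart (quartiles 4 and 30.3 nt), and 130 of the 148 (87.8%) were within 50 nt of each other. Fold enrichment ran from 1.46 to 11.6 and the IP reads at the summit from 9 to 164. The log2 ratio of the fold enrichments of the replicates had an SD of 0.49 over these exons, and 140 of them (94.6%) were within 2-fold. Across the 148 exons, which share libraries and are not independent replicates, the Spearman correlation of the replicates was 0.64.

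**Figure D1:**
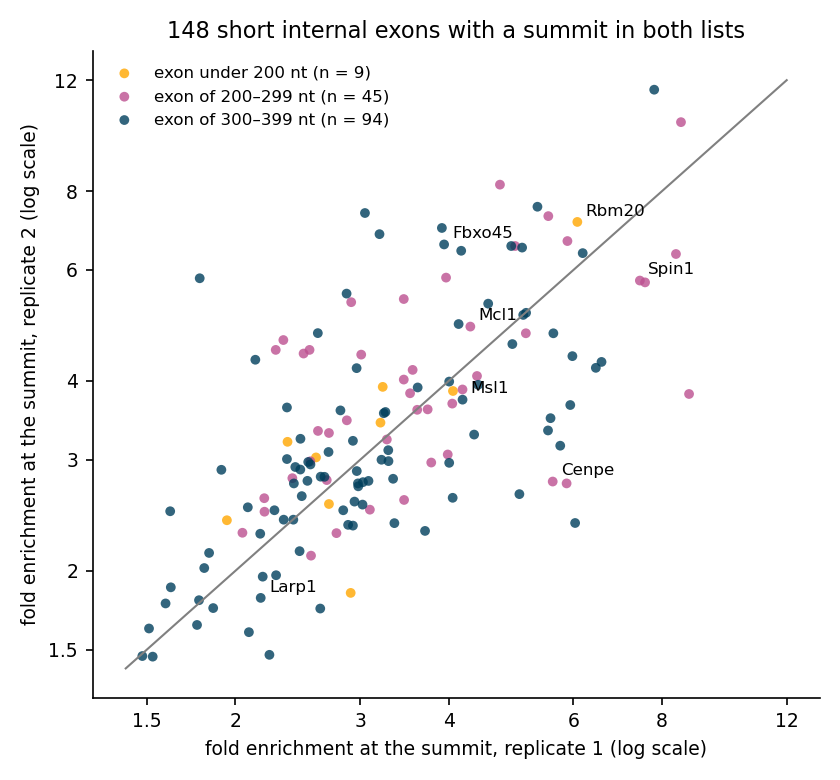
Fold enrichment at the summit in replicate 1 (x axis, log scale) against replicate 2 (y axis, log scale) for the 148 short internal exons with a summit in both lists. Each point is an exon, colored by its length, the line marks equal values, and 140 of the points lie within 2-fold of it.

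Several such exons in 1 gene were seen in 7 genes. Eprs, the glutamyl-prolyl-tRNA synthetase, held 3 in a row. Exon 18 (360 nt) had a fold enrichment of 1.77 and 1.64, exon 19 (234 nt) had 3.74 and 3.61, and exon 20 (263 nt) had 2.05 and 2.30. The middle of the 3 was highest in both lists, and none of the 3 had GGAC within 50 nt of either summit. Neighboring exons also carried a summit in Brpf3 (exons 6 and 7), Heg1 (exons 4 and 5) and Pank2 (exons 2 and 3), and separate exons did so in Epc2 (exons 10 and 13), Kmt2e (exons 17 and 23) and Lrp5 (exons 2 and 6).

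Sites in exons under 200 nt were rare. Their median fold enrichment in each list, 3.20 and 3.74, was not below that of members in exons of 300 to under 400 nt, 2.93 and 2.95. Their median −log10 q was lower, 8.67 and 7.90 against 9.34 and 9.86. Of the 9 exons, 7 are described, in Gon4l (198 nt), Ankrd13b (166 nt), Rab44 (147 nt), Car9 (143 nt), Rbm20 (98 nt), Gps1 (95 nt) and Add2 (90 nt). They were singled out after their values were seen. In exon 5 of Rbm20, a splicing regulator, the fold enrichment was 6.08 and 7.15, from 21 and 26 IP reads, with GGAC beside both summits. The other 6 lay between 1.84 and 4.06. In exon 13 of Add2, an adducin of the membrane skeleton, it was 1.95 and 2.41. Among these 7, replicates differed most in exon 9 of Gps1, a COP9 signalosome subunit, at 2.91 and 1.84.

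Few genes of the functional lists had a site of this kind. Among 5045 genes with a placed summit in both lists and eligible sequence in a short internal exon, 141 had a member in both lists (2.79%). Of the chromatin regulators it was 1 of 38 (Kmt2b, a histone H3 lysine 4 methyltransferase), of DNA repair and replication genes 1 of 20 (Msh6, of mismatch repair), of mitotic and motor genes 2 of 22 (Espl1, which is separase, and Cenpe, a kinetochore kinesin) and of translation and mTOR genes 1 of 13 (Larp1, which binds mRNAs of the translation machinery). No gene had one among 18 hematopoietic transcription factors, 21 cytokine receptor and Jak-Stat genes, 8 genes of m6A writers, erasers and readers and 10 genes of RNA processing and decay, although Wtap of the writer complex had a member in 1 list. These counts are too small to set apart from 2.79%.

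Among the exons of the listed genes, the gap between libraries was widest in Cenpe. In exon 19 of Espl1 (chr15:102316519-102316891, plus strand) the fold enrichment was 3.35 and 2.38. In exon 45 of Cenpe (chr3:135270674-135270960, plus strand) it was 5.61 and 2.77, a 2-fold gap between replicates. Exon 6 of Kmt2b (chr7:30583917-30584196, minus strand) had 3.53 and 3.82, exon 5 of Msh6 (chr17:87988186-87988454, plus strand) had 2.41 and 2.80, and exon 11 of Larp1 (chr11:58049697-58050089, plus strand) had 2.17 and 1.81. Larp1 exon 11 was the weakest of the 5 in both lists despite 151 and 136 IP reads, since its background was equivalent to 79.0 and 71.0 control reads.

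Short internal exons held far fewer summits per base than other coding sequence. In the 7491 transcripts with a placed summit in either list, they offered 7288756 eligible bases, against 2155424 in long internal exons (400 nt or more) and 1521714 in last exons. In replicate 1 they had 3.21 summits per 100 kb, long internal exons 90.7 and last exons 81.6. In replicate 2 the densities were 3.05, 87.1 and 78.7. Against long internal exons the density was 28.2-fold lower (95% interval 24.6 to 32.5) in replicate 1 and 28.6-fold lower (24.9 to 33.0) in replicate 2. Against last exons it was 25.4-fold lower (22.1 to 29.4) and 25.8-fold lower (22.4 to 29.9). The exact conditional binomial test of these rates, two-sided, gave −log10 p of 958, 923, 688 and 665. Intervals and tests cover counting error only, and peaks are not replicates. They also do not account for the choice of transcripts, which entered through placed summits that include the ones counted. The only summit of its transcript was 18.7% and 19.7% of long internal exon peaks and 35.3% and 36.3% of last exon peaks. Of members it was 17.1% and 16.7%. The sizes of these ratios and p-values therefore hold for transcripts chosen by their peaks. Densities by exon length below rest on the same transcripts.

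Density climbed with exon length within the class. In replicate 1 it was 0.58 per 100 kb (exact 95% interval 0.40 to 0.81) in exons under 200 nt, 6.01 (4.75 to 7.52) in exons of 200 to under 300 nt and 44.3 (36.9 to 52.9) in exons of 300 to under 400 nt. In replicate 2 it was 0.45 (0.30 to 0.67), 5.55 (4.33 to 6.99) and 44.7 (37.2 to 53.2). The 3 intervals did not overlap in either list. Exons under 200 nt held 5728726 of the eligible bases but only 33 of 234 and 26 of 222 members, whereas exons of 300 to under 400 nt held 279722 bases and 124 and 125 members. GGAC sites varied much less over the same classes, from 4.74 to 5.33 per kb. The limit of the rule cut through a rising density. Exons of 380 to under 400 nt had 75.7 and 77.9 summits per 100 kb (34 and 35 summits), and those of 400 to 419 nt had 78.3 and 65.7 (31 and 26 summits), with median fold enrichments of 2.42 and 2.98 against 3.17 and 3.03.

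**Figure D2:**
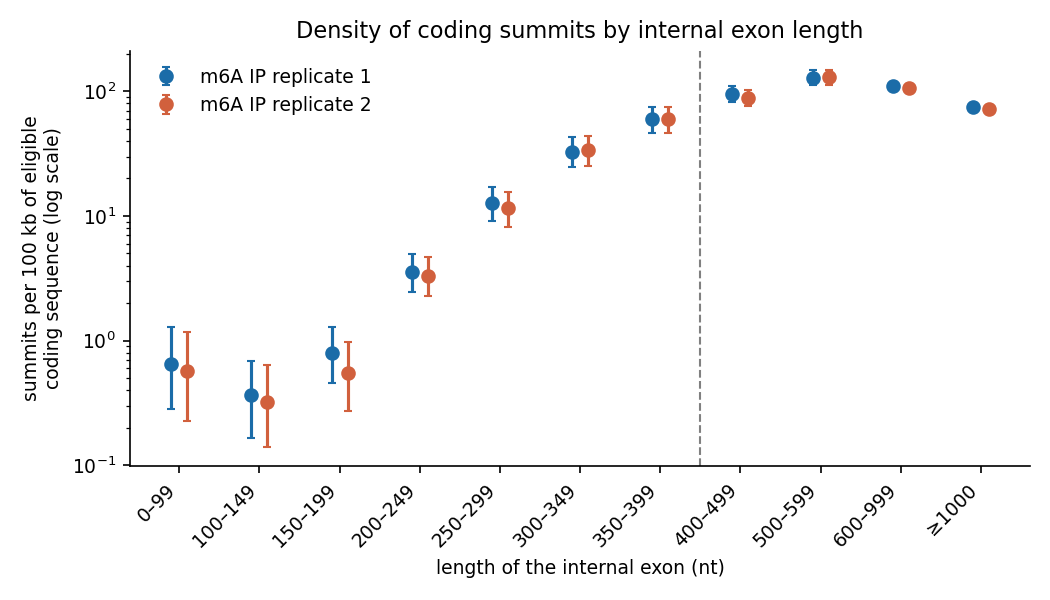
Coding summits per 100 kb of eligible sequence (y axis, log scale) by internal exon length in nt (x axis), for both m6A IP replicates. Points are densities, bars are exact 95% Poisson intervals, and the dashed line is the limit of 400 nt. Density climbs from under 1 per 100 kb below 200 nt to above 50 at 350 to under 400 nt in both lists.

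The class mixed exons of unlike density, so exons were also compared at the same distance from the nearest exon end. At 100 to 149 nt from the nearest end, exons of 300 to under 400 nt had 54.0 and 63.8 summits per 100 kb in replicates 1 and 2, and exons of 400 nt or more had 56.6 and 52.3, a ratio of 0.95 (0.66 to 1.36) and 1.22 (0.86 to 1.71). At 150 to under 200 nt the ratio was 0.85 (0.58 to 1.21) and 0.84 (0.55 to 1.22). No difference was detectable at these distances at this depth. Nearer the ends, exons of 300 to under 400 nt were denser than exons of 400 nt or more by the estimate, with a ratio under 25 nt of 1.83 (0.72 to 4.53) and 2.98 (1.06 to 8.69) and at 50 to 99 nt of 1.55 (0.93 to 2.55) and 1.53 (0.91 to 2.54), and of these intervals only that of replicate 2 under 25 nt left out 1. Exons under 300 nt had fewer summits at the same distance from the nearest end. At 100 to 149 nt they had 9 and 3 summits in 173282 bases, a ratio to exons of 400 nt or more of 0.09 (0.04 to 0.18) and 0.03 (0.01 to 0.10). Under 25 nt from an end their ratio was 0.13 (0.07 to 0.25) and 0.20 (0.09 to 0.49). The upstream and downstream ends were pooled here. Distance from the downstream end, which at a given distance from the nearest end differs with exon length, was not matched.

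**Figure D3:**
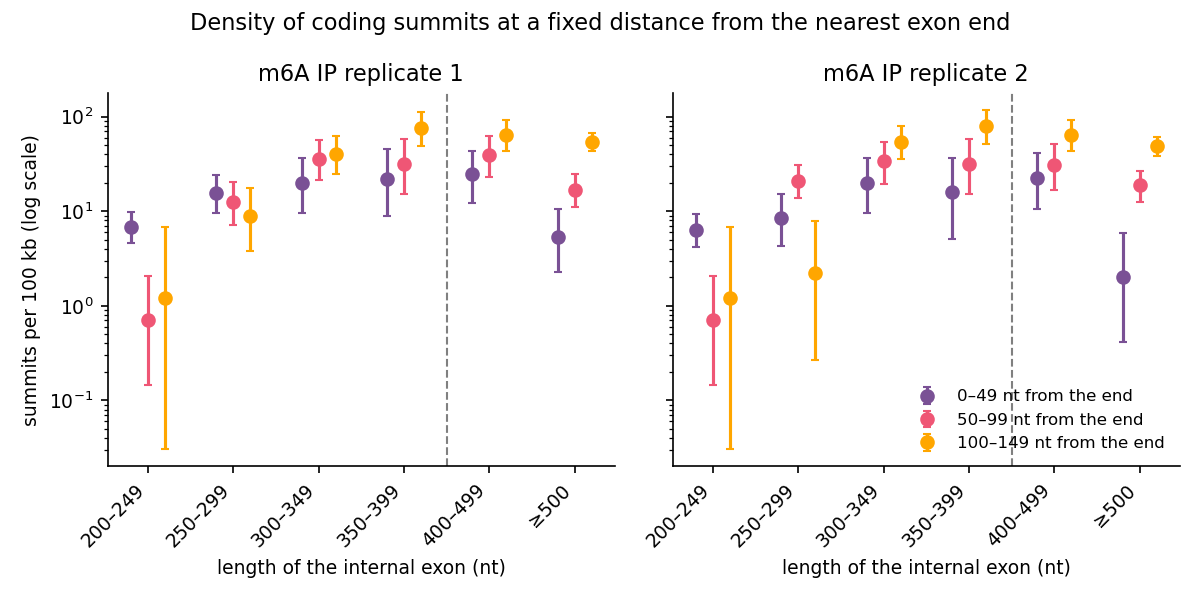
Coding summits per 100 kb (y axis, log scale) by internal exon length in nt (x axis), with bases split by distance from the nearest exon end (colors), for each replicate. Points are densities with exact 95% Poisson intervals, and the dashed line is the limit of 400 nt. From 300 nt on, exons have similar densities at 100 to 149 nt from an end, while in exons of 200 to 249 nt the few summits lie mainly in the first 50 nt.

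Summits clustered at a distance of about 200 nt from the downstream end of the exon. They were nearer the upstream (5′) end in 205 of 234 members (87.6%) of replicate 1 and 200 of 222 (90.1%) of replicate 2, against 52.1% and 51.8% of long internal exon peaks. The median distance from the summit to the downstream end was 208.5 nt (quartiles 191 and 243) and 210 nt (197 and 242), and 62.4% and 64.0% of members had it from 150 to under 250 nt, against 16.0% and 16.1% of long internal exon peaks. These shares depend on exon length, a median of 303.5 and 311 nt for members against 933 and 921 nt, and were not compared at equal length. In an exon under 400 nt, a summit 200 nt from the downstream end is nearer the upstream end by construction. The side was the same for genes on the plus strand (89.8% and 88.7%) and on the minus strand (84.9% and 91.8%). Long internal exons showed the gap too, with 167 and 155 summits within 150 nt of the upstream end and 13 and 9 within 150 nt of the downstream end.

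**Figure D4:**
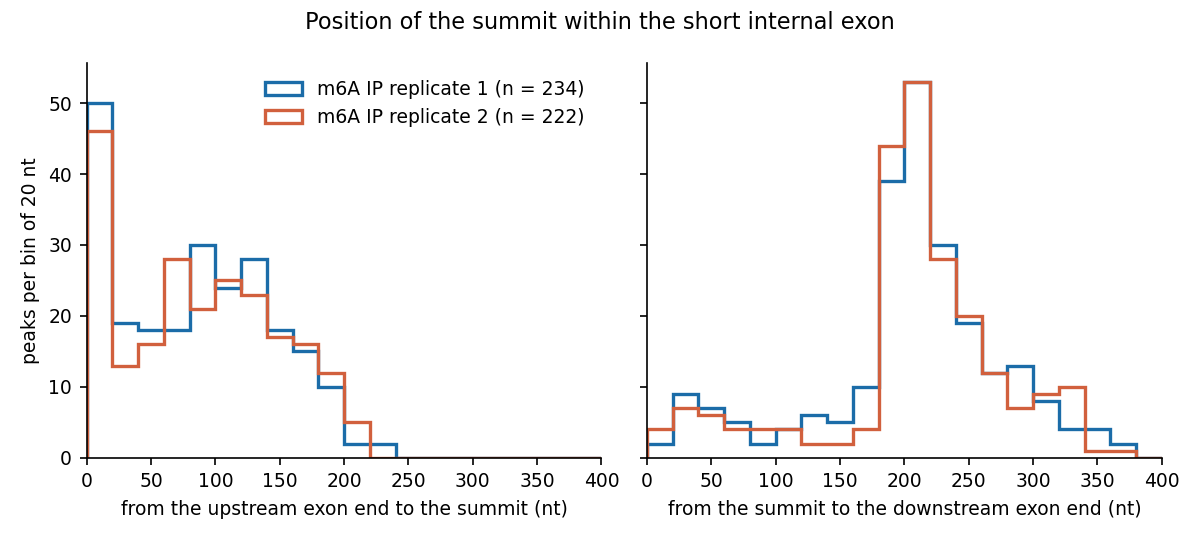
Number of member peaks per bin of 20 nt (y axis) by the distance in nt from the upstream exon end to the summit (left) and from the summit to the downstream exon end (right), for both m6A IP replicates. The distances to the downstream end pile up near 200 nt in both lists.

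The peaks ran into the intron on the same side. A stretch past the upstream end of the exon was covered by 92.3% and 93.2% of member peaks, and one past the downstream end by 12.4% and 14.4%. A median of 33.3% and 33.8% of the bases of a member peak were in introns, against 0% for long internal exons. No peak in either list was narrower than 200 bp. Member peaks were a median of 249.5 and 260.5 bp wide, against 492 and 507 bp in long internal exons, and 32.1% and 30.2% of them were wider than their exon. How far the peak caller extended reads is not given in the sources used here, and its part in where summits fell was not tested.

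This position bears on the density, since the rule takes only summits inside an exon. In replicates 1 and 2, 2925 and 2668 summits lay in no annotated exon, and 729 and 695 of these peaks overlapped an exon of a chosen transcript. Moving each such summit into the exon its peak overlapped most added 143 and 144 peaks to short internal exons, 116 and 118 of them in exons under 200 nt. The summit had been upstream of the exon for 117 and 122 of them. With the moved summits there were 377 and 366 peaks in short internal exons, 149 and 144 of them in exons under 200 nt, where the density became 2.50 (2.11 to 2.93) and 2.41 (2.04 to 2.84) per 100 kb. Over all short internal exons the density was then 4.98 and 4.84 against 90.3 and 87.0 in long internal exons, a ratio of 0.055 and 0.056 in place of 0.035 and 0.035. The number of exons with a summit in both lists became 232. The shortfall against long internal exons thus remained with the moved summits, but its size in the shortest exons depended on this choice.

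Short exons with a summit were often next to a long one. Fully eligible exons of transcripts with a placed summit in both lists were compared within a length class, with exact 95% intervals. The features were chosen after the peaks had been seen and carry no test. Of exons of 200 to under 300 nt, 17 of 27 with a member in both lists (63.0%, 42.4 to 80.6) were beside an exon of 400 nt or more or the last exon, against 619 of 4060 without a summit (15.2%, 14.2 to 16.4). Of exons of 300 to under 400 nt it was 29 of 77 (37.7%, 26.9 to 49.4) against 93 of 458 (20.3%, 16.7 to 24.3). The exon before the last made up 25.9% (11.1 to 46.3) against 5.67% (4.97 to 6.42) in the shorter class, and 9.09% (3.73 to 17.8) against 6.99% (4.83 to 9.72) in the longer one, where the intervals overlap. The 8 such exons under 200 nt were too few to compare.

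At the exon ends themselves the density differed with the neighbor. This was computed in transcripts with a placed summit in both lists. Of their bases within 50 nt of an end of a short internal exon, 6.48% faced a long or last exon across the junction. These had 14.2 summits per 100 kb (10.03 to 19.5) in replicate 1 and 12.7 (8.78 to 17.7) in replicate 2, whereas the bases facing another short exon, or the first exon if short, had 0.93 (0.65 to 1.29) in each. In these transcripts 38 of 74 and 34 of 70 summits within 50 nt of an end faced a long or last exon. Exon length, with which density climbs, was not matched in this comparison. Both ends were pooled, although 67 of the 74 and 59 of the 70 summits were at the upstream end, which never faces a last exon. The part of length and of the side in the contrast was not tested. Another summit of the same transcript lay within 500 nt of 42.7% and 41.0% of members on the spliced transcript, against 12.03% and 12.6% of long internal exon peaks. Long internal exon peaks were wider, a median of 492 and 507 bp against 249.5 and 260.5 bp. The part of peak width and exon length in this contrast was not tested. The summit nearest to a member was most often in a long internal exon (27.4% and 27.5%) or near the stop codon (22.2% and 24.3%). The member was the only summit of its transcript in 17.1% and 16.7%.

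**Figure D5:**
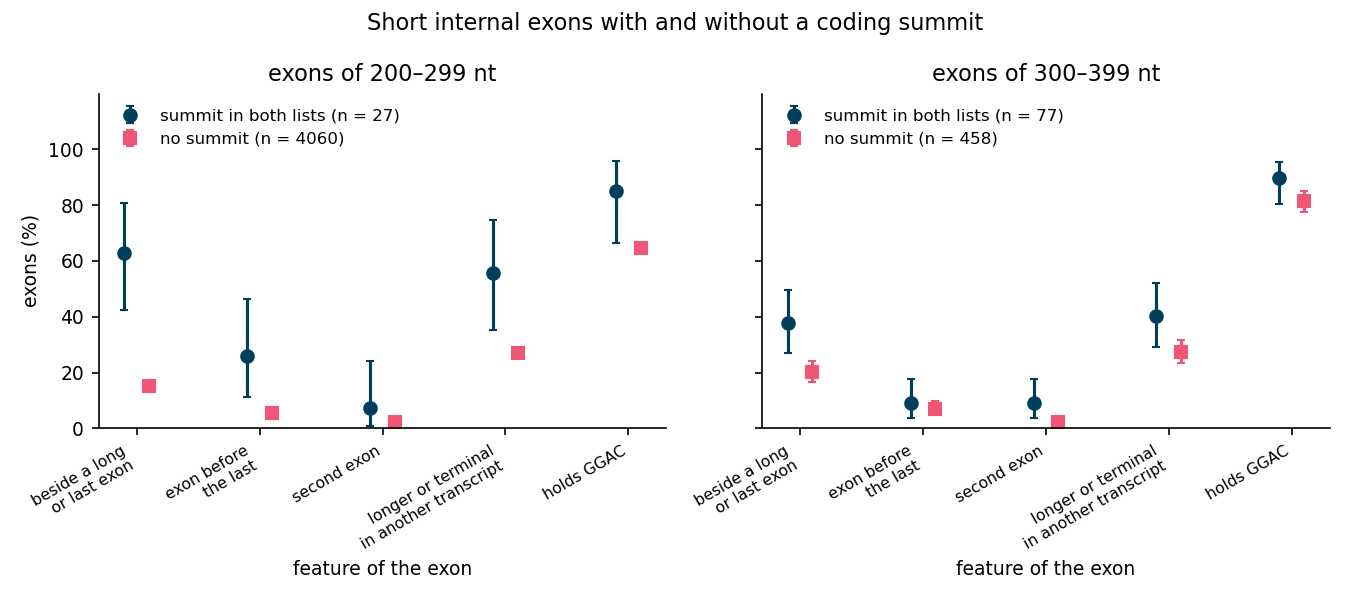
Percent of short internal exons (y axis) with each feature (x axis), for exons of 200 to under 300 nt (left) and 300 to under 400 nt (right), with a member summit in both lists (circles) or no summit in either (squares). Bars are exact 95% binomial intervals. The gap is widest for exons of 200 to under 300 nt beside a long or last exon, 63.0% against 15.2%.

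Many sites were annotated as a short internal exon in some transcripts of the gene only. In the full GENCODE M21 set, which also holds partial and retained intron transcripts, the summit lay in an exon of at least 400 nt, or in a first or last exon, of another transcript of the gene for 115 of 234 members (49.1%, 42.6 to 55.7) in replicate 1 and 105 of 222 (47.3%, 40.6 to 54.1) in replicate 2. For the middle base of exons without a summit it was 26.9% at 200 to under 300 nt and 27.3% at 300 to under 400 nt, against 55.6% (35.3 to 74.5) and 40.3% (29.2 to 52.1) for exons with a member in both lists. A retained intron transcript held the summit of 35.9% and 36.0% of members, and the middle of 32.3% and 27.9% of exons of the 2 length classes without a summit. Members that were internal and under 400 nt in every transcript recurred in the other list in 69.7% and 74.4%, and the rest in 71.3% and 73.3%. Of the 15 exons with the highest lower −log10 q, 5 were longer or terminal in another transcript (Msl1, Epc2, Spen, Zfp609 and Rad52). Of the exons printed above, those of Rad52 and Ankrd16 were longer or terminal in another transcript, and those of Spin1, Rab38, Ccsap and Cep55 were not.

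Member peaks recurred less often than other coding peaks when any shared base counted as recurrence. A peak of the other list overlapped 165 of 234 members (70.5%, 64.2 to 76.3) in replicate 1 and 164 of 222 (73.9%, 67.6 to 79.5) in replicate 2. Over all peaks the shares were 80.6% and 83.9%. Long internal exon peaks recurred in 90.1% and 92.6% and last exon peaks in 90.2% and 90.6%. The difference from long internal exons was −19.6 percentage points (−25.8 to −13.9, adjusted p = 2.7e-14) and −18.8 points (−25.0 to −13.3, adjusted p = 1.1e-14) by Fisher's exact test, two-sided. From last exons it was −19.7 points (−26.0 to −13.9, adjusted p = 1.9e-13) and −16.7 points (−23.0 to −11.1, adjusted p = 2.9e-10) by the same exact test.

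This result depended on what counts as the same peak. Long internal exon peaks were about 2-fold wider, as given above, and the part of width in recurrence was not tested separately. Counting a peak as recurring when a summit of the other list was within 100 bp, the shares were 67.5% and 71.2% for members, 74.8% and 77.8% for long internal exons and 68.4% and 70.5% for last exons. The difference from long internal exons was then −7.30 points (adjusted p = 0.042) and −6.61 points (adjusted p = 0.069), and from last exons −0.84 and 0.66 points (adjusted p = 0.87 in each, Fisher's exact test). Members also had weaker peaks, with a median −log10 q of 10.5 and 10.3 against 18.1 and 17.3 in long internal exons and a median fold enrichment of 3.09 and 3.31 against 3.90 and 4.02. At a −log10 q of 20 or more, any shared base was found for 37 of 45 and 33 of 36 members, against 863 of 867 and 774 of 775 long internal exon peaks. In replicate 1 the gap was small among weak peaks, with 21 of 42 members against 81 of 145 at a −log10 q under 5 and 47 of 67 against 267 of 358 from 5 to under 10. In replicate 2 the same shares were 53.8% against 69.7% and 67.6% against 82.1%. Members had a median of 64 and 61 IP reads at the summit, against 78 and 77 in long internal exons.

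The overlapping summit of the other list was in the same exon for most recurring members. It met the same rule for 148 members of each list and fell within 200 nt of a codon in the same exon for 4 in each. In 11 and 10 cases it lay in an intron of the gene. Members in exons under 200 nt recurred in 18 of 33 and 13 of 26, those in exons of 200 to under 300 nt in 49 of 77 and 52 of 71, and those in exons of 300 to under 400 nt in 98 of 124 (79.0%, 70.8 to 85.8) and 99 of 125 (79.2%, 71.0 to 85.9).

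The share of summits near the m6A motif did not differ detectably from that of long internal exons. GGAC within 50 nt of the summit on the spliced transcript was found at 130 of 234 members (55.6%, 48.9 to 62.0) and 134 of 222 (60.4%, 53.6 to 66.8), where 56.1% and 56% of all placed summits had it. Long internal exons had 57.0% and 56.0%, a difference of −1.46 points (−8.22 to 5.15, adjusted p = 0.68) and 4.31 points (−2.61 to 10.9, adjusted p = 0.26) by Fisher's exact test. Last exons had 52.0% and 51.0%. The difference was 3.54 points in replicate 1 (−3.44 to 10.4, adjusted p = 0.38) and 9.32 points in replicate 2 (2.18 to 16.1, adjusted p = 0.020, Fisher's exact test), so it passed the threshold in 1 list only. The share was not even within the class. Members with at least 50% of their bases in introns, 67 and 57 peaks, had GGAC in 43.3% (31.2 to 56.0) and 45.6% (32.4 to 59.3). The other 167 and 165 members had it in 60.5% (52.6 to 67.9) and 65.5% (57.7 to 72.7). They recurred in 74.9% and 76.4%, and the former in 59.7% and 66.7%. This split was not tested. Among the 148 exons with a summit in both lists, 78 had GGAC near both summits and 51 near neither, the exons of Mcl1, Msl1, Eprs and Dido1 among the latter. The looser DRACH motif was near 95.7% and 96.8% of members and 96.7% and 96.5% of long internal exon summits, so it did not separate them.

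GGAC was more frequent in the 50 nt from the summit onward than at 100 to 149 nt downstream, the stretch with the lowest rate in both lists. Its adenosines occurred at 8.80 per kb (7.19 to 10.7) in the 50 nt from the summit onward in replicate 1 and at 9.10 per kb (7.41 to 11.1) in replicate 2, against 5.30 (4.06 to 6.79) and 5.32 (4.05 to 6.86) at 100 to 149 nt downstream. Neighboring stretches had overlapping intervals. The rate was 8.38 (6.80 to 10.2) at 50 to 99 nt downstream in replicate 1. In the 50 nt before the summit it was 8.56 (6.92 to 10.5) in replicate 2. Farther stretches, out to 200 nt on either side, overlapped the 50 nt from the summit onward as well. At 150 to under 200 nt downstream the rate was 6.32 (4.97 to 7.94) and 6.49 (5.08 to 8.17). A peak of GGAC limited to the summit was therefore not resolved in members. Among members with GGAC within 50 nt, the nearest was a median of 19 nt away in both lists, and among such long internal exon summits 18 and 16 nt. It was read as G followed by the aspartate codon GAC in 51.5% (42.6 to 60.4) and 56.7% (47.9 to 65.2) of members with one, against 55.5% and 55.4% in long internal exons.

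Whether a short exon held GGAC was compared between exons with and without a summit. Among fully eligible exons of 100 to under 200 nt, it was present in 14 of 21 with a summit (66.7%) and 12835 of 27067 without (47.4%) in replicate 1, a difference of 19.2 points (−2.05 to 35.4, adjusted p = 0.12, Fisher's exact test). In replicate 2 it was present in 11 of 17 (64.7%) and 12440 of 26395 (47.1%), a difference of 17.6 points (−5.84 to 35.6, adjusted p = 0.26, Fisher's exact test). With 21 and 17 exons a gap of this size was not distinguishable from 0. With peaks of a fold enrichment of at least 4 the difference was 39.97 points (adjusted p = 0.049) in replicate 1 and −4.52 points (adjusted p = 1) in replicate 2 by the same exact test, so the direction was not shared. In exons of 200 to under 300 nt the difference was 17.0 points (adjusted p = 0.017) in replicate 1 and 12.2 points (adjusted p = 0.12) in replicate 2 by the same exact test. In exons of 300 to under 400 nt, GGAC was present in 89.6% (80.6 to 95.4) of the 77 with a summit in both lists. It was present in 81.4% (77.6 to 84.9) of the 458 with none, and the intervals overlap. Counted per kb, without an interval, it occurred at 7.04 against 4.89. The same rates were 5.84 against 4.65 in exons of 200 to under 300 nt and 5.14 against 4.61 in those under 200 nt. Exons of 300 to under 400 nt with a summit in both lists were poorer in G and C, with a median GC content of 50.6% (quartiles 46.2 and 53.9) against 56.1% (50.4 and 60.3). In exons of 200 to under 300 nt it was 47.5% (44.9 and 53.0) against 53.0% (47.8 and 57.6). Exons under 200 nt went the other way. The 8 with a summit in both lists had 56.8% (53.4 and 57.9), against 50% (44.4 and 55.5) in those with none. These features were looked at after the peaks and carry no test.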

How the data were processed

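m6A meRIP-seq peak lists of 2 IP samples of Kit+ foetal liver cells were used. Per the study's methods the authors aligned reads to GRCm38 with HISAT2 and called peaks for each biological replicate with MACS2 (version 2.1.1.20160309 in the submitters' processing notes) without a fragment model. The control library, threshold and read extension are not given in the sources used here. Per the deposited lists, each peak has a start, end and summit offset, a score (the whole part of 10 times −log10 q), the fold enrichment as a ratio of IP to background signal, and −log10 p-values and q-values. The IP reads at each summit and the local background, expressed in control reads, were recovered from the deposited fold enrichment and −log10 p. The background is the mean the peak caller tested against, and need not be a whole number of reads. A whole number of IP reads was found for 100% of peaks, to within 0.001 in −log10 p. Input files and library totals were not analysed here, so the depth of each library is unknown.

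Summits were placed on 21851 transcripts (GENCODE M21 basic) with Python 3.11.15. Densities were compared by the exact conditional binomial test and shares by Fisher's exact test, per list, with Benjamini-Hochberg adjustment over the 14 tests. Shares carry exact (Clopper-Pearson) and differences Newcombe 95% intervals. Both cover counting error only, since fragments are PCR amplified. GGAC and DRACH were searched on the spliced transcripts, coding strand alone. The scripts were tested on simulated data. Exons named are those with a summit in both lists: the 15 with the highest lower −log10 q, the 10 with the highest lower fold enrichment at 10 or more control reads, and those in the gene lists. Members, lists and tests were chosen with earlier results of these data known. Alternatives were thresholds on peaks, exon and codon distances, overlap, motif window, transcript choice and leaving out a replicate. Moved summits, bases at a set distance from exon ends and transcripts with both exon classes were added after the data had been seen. Of the exons under 200 nt with a summit in both lists, 2 are not reported here by name.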

Additional observations from a re-analysis of the deposited data

How the results depend on the processing

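No paired analysis was possible because only peak lists of the IP samples were analysed here, and the input samples that share their numbers were not. Values are means of both lists. Both density ratios stayed below 1 and past the threshold under every alternative run, but the ratio to long internal exons fell from 0.035 to 0.018 and 0.0090 with an exon limit of 300 and 200 nt, and rose to 0.055 with summits moved out of introns, which took that to last exons from 0.039 to 0.061. The mean of 228 members per list became 76.5 at a fold enrichment of at least 4, 103.5 and 29.5 with an exon limit of 300 and 200 nt, and 371.5 with summits moved out of introns. The 148 exons with a member in both lists became 27, 54, 9 and 232 in the same order. The limits on fold and length leave fewer peaks by construction. Leaving out a replicate gave 222 to 234 members. The recurrence difference from long internal exons, −19.2 points, became −12.3 with 50% reciprocal overlap (adjusted p = 5.1e-05 and 3.9e-05, Fisher's exact test) and −6.96 points with summits within 100 bp (adjusted p = 0.069 in replicate 2). That from last exons became −6.39 points with 50% reciprocal overlap (adjusted p = 0.058 and 0.090, Fisher's exact test) and −0.0873 with summits within 100 bp. With either rule the difference from last exons passed the threshold in neither list. Leaving out a replicate gave −19.6 to −18.8 and −19.7 to −16.7 points. The GGAC difference from long internal exons, 1.43 points and not past the threshold, turned to −2.94 at a fold enrichment of at least 4, −0.66 and −1.41 over 100 and 400 nt from the codons, −3.03 with an exon limit of 300 nt, −0.37 within 25 nt, −3.98 within 50 nt on the genome and −2.13 with moved summits, and lay between −1.46 and 4.31 when a replicate was left out. That from last exons, 6.43 points, passed the threshold in both lists at 7.67 within 100 nt. It became 1.14 within 50 nt on the genome, 2.89 with moved summits and 3.45 over 100 nt from the codons, where replicate 2 no longer passed the threshold either, nor at a fold enrichment of at least 4, over 400 nt from the codons or within 25 nt, and lay between 3.54 and 9.32 when a replicate was left out. At bases 100 to under 200 nt from an exon end the density ratio to long internal exons was 0.36, and under 50 nt 0.20. The difference in exons with GGAC, 18.4 points, became 2.66 with DRACH and 8.20 with moved summits (11.7, adjusted p = 0.039, in replicate 1 and 4.70, adjusted p = 0.43, in replicate 2 by Fisher's exact test).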
